A study of Arabidopsis thaliana with 4 samples.

Results

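The 9 genes described here encode helpers of the cytosolic chaperone machinery and of heat-stress transcription in Arabidopsis thaliana: the immunophilins ROF1 (AT3G25230) and ROF2 (AT5G48570), the HSP70-binding protein Fes1A (AT3G09350), the HSP70-HSP90 organising proteins HOP1 (AT1G12270), HOP2 (AT1G62740) and HOP3 (AT4G12400), and the multiprotein bridging factors MBF1A (AT2G42680), MBF1B (AT3G58680) and MBF1C (AT3G24500). They were taken by locus code from 30361 loci, and all 9 were measured. Whole wild-type Col-0 plants were closed in a box with the vapour of (E)-2-hexenal, a reactive aldehyde of wounded leaves, at 10 µM for 30 min (3 arrays, labelled as biological replicates) or kept with the solvent acetonitrile for 30 min (1 array). Each RNA sample pooled at least 6 plants, whose age the labels do not give, and was hybridised to a one-colour NimbleGen array that yielded 1 intensity per locus. The study asked which stress genes leaf volatiles induce. With a single acetonitrile array the spread between control samples is unknown, and precision is limited by there being only 4 arrays.

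Cytosolic HSP70 and HSP90 fold proteins in a cycle that co-chaperones steer. HOP proteins hold HSP70 and HSP90 together through tetratricopeptide repeats so that a client can pass between them, Fes1A binds HSP70 and protects it in heat-stressed plants, and ROF1 and ROF2 are peptidyl-prolyl isomerases of the FKBP type that dock on HSP90. In Arabidopsis ROF1 is known to bind HSP90.1 and to keep the heat shock factor HSFA2 in the nucleus, and ROF2 to act on the same complex. MBF1 proteins link transcription factors to the TATA-binding protein. MBF1C is known as the heat-inducible member of its family and as a factor needed for basal thermotolerance.

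After 30 min of hexenal, 1 gene in each of the ROF, HOP and MBF1 families stood well above the acetonitrile array, and its paralogues had smaller differences. ROF2, Fes1A, HOP3 and MBF1C rose 27.8-fold, 21.4-fold, 15.2-fold and 8.54-fold. ROF1 was 2.30-fold higher and missed the threshold, HOP2 was at 1.38-fold and HOP1 at 0.887-fold, and MBF1A and MBF1B were at 0.990-fold and 1.00-fold. In all, 4 of the 9 genes were called higher and none lower, where 0.866% of all loci were called higher and 0.0329% lower. A call needed an adjusted p below 0.05 (limma, Benjamini-Hochberg over the whole table) together with a difference of 2-fold or more. The genes were grouped for this account with earlier results of these data known, so that share is given as a description. All 3 hexenal arrays lay above the acetonitrile array for 6 of the 9 genes, which was so for 26.1% of all loci, and for none did all 3 lie below it, which was so for 32.4%. The hexenal arrays fell on either side of it for the other 3 genes. Without hexenal replicate 2 limma called no locus of the whole table, these 4 genes included, although 1546 loci had an unadjusted p under 0.05. In whole-plant RNA, more RNA per cell and more cells of a type that holds it cannot be told apart.

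The first family, the ROF immunophilins, had its larger change in ROF2. ROF2 had deposited intensities of 18145, 16811 and 23076 on hexenal arrays 1, 2 and 3, against 683 on the acetonitrile array. All 3 hexenal values lay far above the control, with array 3 the highest. On the quantile-normalized log2 scale used from here on, ROF2 averaged 14.22 ± 0.25 with hexenal (SD, n = 3) and 9.43 with acetonitrile, a log2 fold change of 4.80 ± 0.29 (SE, adjusted p = 0.00878 by limma). It ranked 23 among the 30361 loci by log2 fold change, counted from the highest.

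ROF1 had intensities of 24085, 26310.1 and 21027 on hexenal arrays 1, 2 and 3, against 10193 on the acetonitrile array. The groups did not overlap, and array 3, the highest for ROF2, was the lowest for ROF1. ROF1 averaged 14.53 ± 0.16 with hexenal (SD, n = 3) and 13.33 with acetonitrile. Its log2 fold change of 1.20 ± 0.26 (SE, 95% confidence interval 0.56 to 1.85) had an unadjusted p of 0.0044 and an adjusted p of 0.186 in limma, so it was not called. It was called when the variance prior was fitted with trend and robust (adjusted p = 0.00917), and over the 10 alternatives the adjusted p lay between 0.00917 and 0.730. The fold change of ROF2 exceeded that of ROF1 by 3.48, 3.25 and 4.05 on the log2 scale on arrays 1, 2 and 3 (mean 3.59 ± 0.41, SD, n = 3), a 12.1-fold ratio of the fold changes.

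Fes1A had intensities of 16290, 22155 and 24653 on hexenal arrays 1, 2 and 3, against 951 on the acetonitrile array. Array 1 was the lowest of the 3 and still far above the control. Fes1A averaged 14.33 ± 0.32 with hexenal (SD, n = 3) and 9.92 with acetonitrile, a log2 fold change of 4.42 ± 0.32 (SE, adjusted p = 0.0125 by limma). Its hexenal spread was the widest of the 4 called genes. The other Fes1 genes of the reference, named here as its paralogues and outside the naming rule, had smaller log2 fold changes. FES1B (AT3G53800) was at 0.46 ± 0.37 (SE, adjusted p = 0.745), with 0.12, 0.32 and 0.93 on arrays 1, 2 and 3, and FES1C (AT5G02150) at 0.87 ± 0.26 (SE, adjusted p = 0.378), with 0.90, 0.69 and 1.01. Neither was called, and on each array both stood below Fes1A, which was at 4.06, 4.51 and 4.68.

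**Figure D1:**
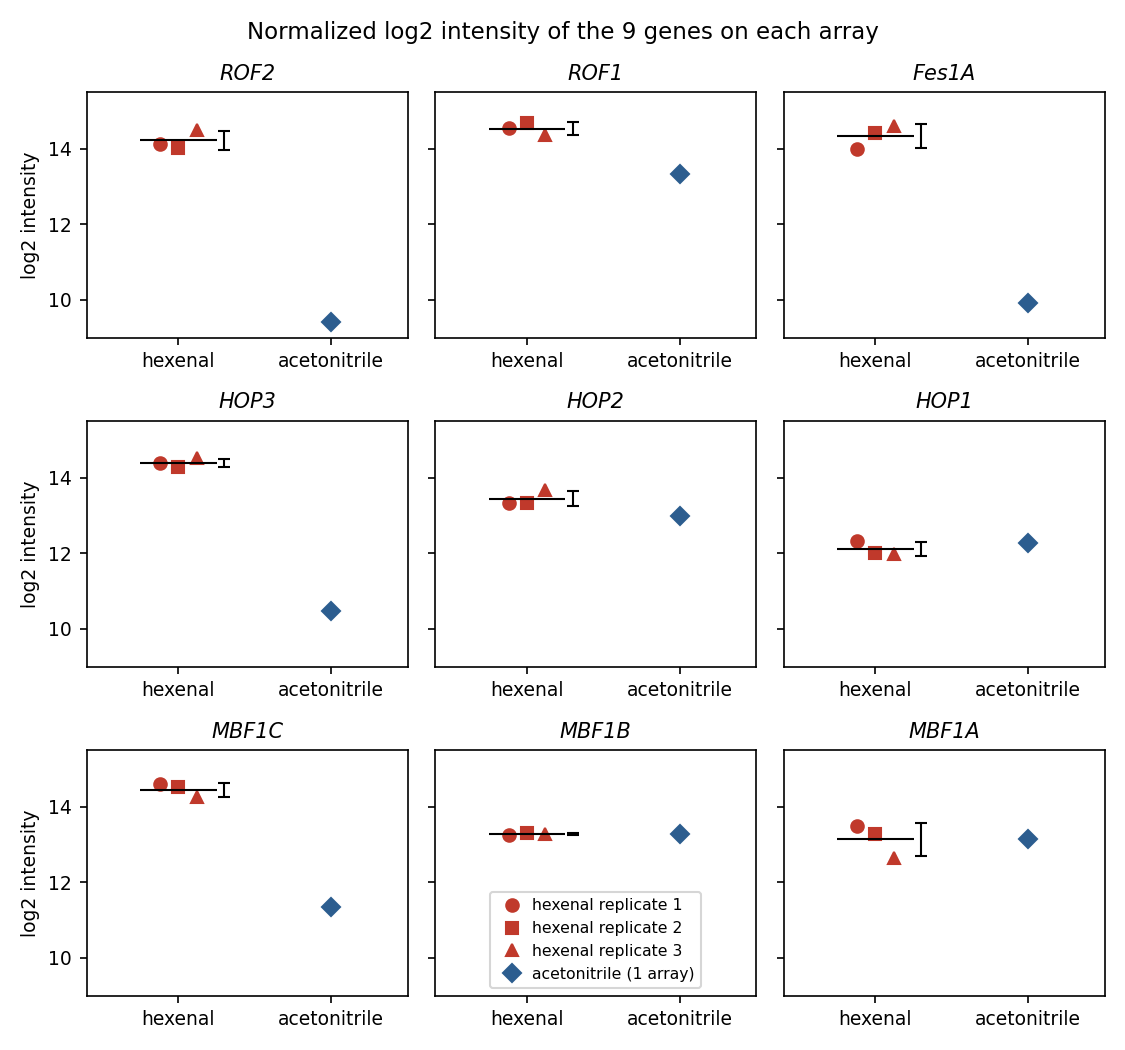
Quantile-normalized log2 intensity (vertical axis, 9 panels, 1 per gene) on the 3 hexenal arrays (red, 1 symbol per replicate, with the mean as a line and the SD as a bar beside it) and on the acetonitrile array (blue diamond). ROF2, Fes1A, HOP3 and MBF1C show hexenal means of 14.22 to 14.45 over acetonitrile values of 9.43 to 11.36, while the points of MBF1B, MBF1A and HOP1 lie about their acetonitrile value.

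Among the HOP genes, HOP3 alone was called. HOP3 had intensities of 21338, 20325 and 23237 on hexenal arrays 1, 2 and 3, against 1390.0 on the acetonitrile array. The 3 hexenal values lay close together, with a log2 mean of 14.40 ± 0.11 (SD, n = 3), and the acetonitrile value was 10.47. The log2 fold change was 3.92 ± 0.24 (SE, adjusted p = 0.00878 by limma).

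HOP2 had intensities of 10399.7, 10382 and 12904 on the hexenal arrays, against 7994 on the acetonitrile array. All 3 hexenal values were above the control, but the difference of 0.46 ± 0.27 (SE, 95% confidence interval -0.21 to 1.13) was not called (adjusted p = 0.676 by limma). HOP1 had 5117, 4152 and 4056 on the hexenal arrays, against 4901 on the acetonitrile array. Its groups overlapped, with array 1 above and arrays 2 and 3 below the control, and the difference was -0.17 ± 0.26 (SE, 95% confidence interval -0.83 to 0.49, adjusted p = 0.878). As folds, the intervals reach from 0.867 to 2.19 in HOP2 and from 0.562 to 1.40 in HOP1.

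The fold change of HOP3 exceeded that of HOP1 by 4.10 ± 0.23 (SD, n = 3) and that of HOP2 by 3.46 ± 0.10 on the log2 scale. The difference from HOP2 varied little between hexenal arrays, at 3.55, 3.47 and 3.36 on arrays 1, 2 and 3. The acetonitrile array enters all 3 values alike. The SD of this and of every other paralogue difference therefore holds only the spread of the hexenal arrays. HOP2 exceeded HOP1 by 0.63 ± 0.33, with 0.32, 0.62 and 0.97 on the 3 arrays.

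In the MBF1 family MBF1C rose. It had intensities of 24841, 23362 and 19449.7 on hexenal arrays 1, 2 and 3, against 2586 on the acetonitrile array. Array 3 was the lowest of the 3, and the groups were far apart. MBF1C averaged 14.45 ± 0.18 with hexenal (SD, n = 3) and 11.36 with acetonitrile, a log2 fold change of 3.09 ± 0.26 (SE, adjusted p = 0.0170 by limma).

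MBF1B was the steadiest of the 9 genes, with 9875, 10245 and 9935 on the hexenal arrays, against 9859 on the acetonitrile array. Its SD over the hexenal arrays, 0.023 on the log2 scale, was among the lowest 1.01% of all loci, and its difference was 0.0025 ± 0.23 (SE, 95% confidence interval -0.58 to 0.58, adjusted p = 0.999 by limma), with a sign that turned under median centring (-0.0082). The standard error is wider than that SD because limma draws each locus's variance towards that of all loci. MBF1A was the most variable, with 11609, 10077 and 6436 on hexenal arrays 1, 2 and 3, against 9029 on the acetonitrile array. Arrays 1 and 2 lay above the control and array 3 below it, so the groups overlapped, and the difference was -0.015 ± 0.38 (SE, 95% confidence interval -0.98 to 0.95, adjusted p = 0.995). Its sign turned with the values as deposited (0.011), with cyclic loess (0.016) and without hexenal replicate 3 (0.23). As a fold, the interval of MBF1A reaches from 0.507 to 1.93.

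The fold change of MBF1C exceeded that of MBF1A by 3.11 ± 0.25 and that of MBF1B by 3.09 ± 0.19 on the log2 scale (SD, n = 3 each). MBF1B and MBF1A differed by 0.017 ± 0.44, with -0.35, -0.10 and 0.51 on arrays 1, 2 and 3. Of 7 paralogue pairs compared within the 3 families, 5 had the acetonitrile array as the most extreme of the 4 arrays, each with p = 0.25 in a two-sided exact permutation test over the 4 choices of the control array (0.35 adjusted over the 7 pairs). That is the smallest p the design allows, so no pair could reach 0.05. HOP2 against HOP1 had p = 0.50 and MBF1B against MBF1A p = 1 in the same exact test (0.583 and 1 adjusted). The levels of different loci were not tested against each other, since each locus has probes of its own, and whether paralogues share probe sequence was not tested.

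**Figure D2:**
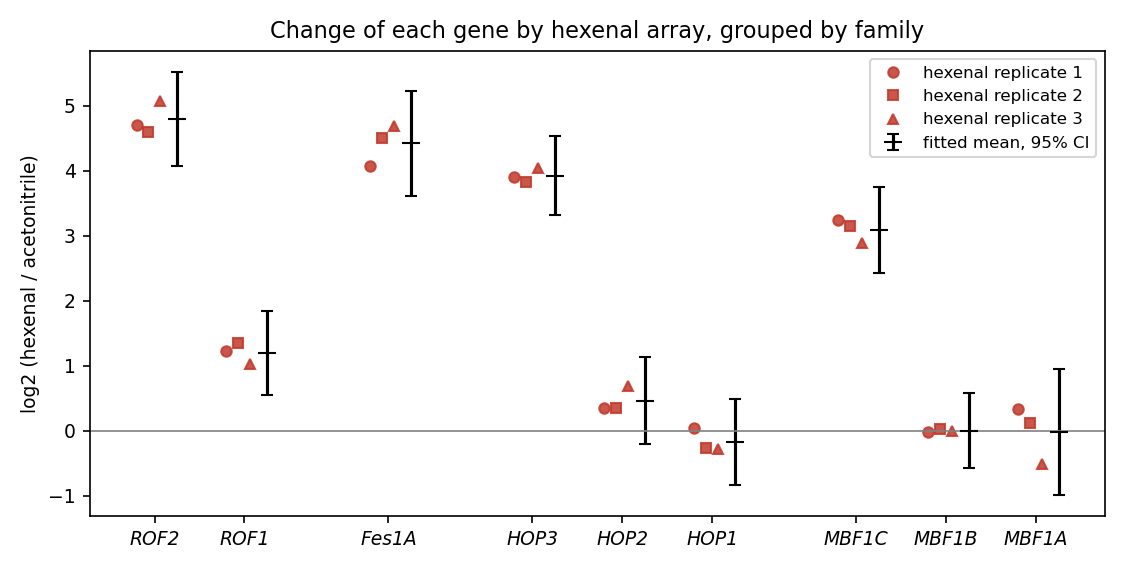
Log2 ratio of hexenal to acetonitrile (vertical axis) for each gene, grouped by family: red symbols are the 3 hexenal arrays, each set against the single acetonitrile array, and black bars the fitted mean with its 95% confidence interval. ROF2, HOP3 and MBF1C stand clear of their paralogues on every hexenal array, and only ROF1 of the genes that were not called has an interval above 0.

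Ordered by log2 fold change, the genes ran ROF2, Fes1A, HOP3, MBF1C, ROF1, HOP2, MBF1B, MBF1A and HOP1. Of the 8 neighbouring pairs in that order, 5 had array values that did not overlap. The ranges overlapped for ROF2 and Fes1A, for MBF1B and MBF1A, and for MBF1A and HOP1, and array by array ROF2 was above Fes1A on 3 of 3 arrays while the order of the other 2 pairs was mixed. Fes1A and HOP3 were separated by little, the lowest Fes1A value being 4.06 and the highest HOP3 value 4.04. The 3 ratios of a gene share 1 acetonitrile value, whose error these ranges leave out, so the order is a description. In the 4 called genes that value ran the reverse way, at 9.43, 9.92, 10.47 and 11.36 from ROF2 to MBF1C. Their hexenal means were 14.22, 14.33, 14.40 and 14.45 in the same order. All acetonitrile values of the 9 genes lay above the dimmest 25% of loci on that array, from percentile 45.1 (ROF2) to percentile 93.4 (ROF1), and no value of the 9 exceeded 26310.1 where the brightest locus of the table reached 57290.1. Background correction is not given in the sources used here, so part of a fold change from a dim control may depend on it.

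The hexenal arrays did not move these genes up or down as a block. Relative to each gene's hexenal mean, array 3 was the highest for ROF2, Fes1A, HOP2 and HOP3 and the lowest for ROF1, HOP1, MBF1A and MBF1C. The deviations of array 3 ran from -0.49 in MBF1A to 0.28 in ROF2 on the log2 scale. Within the called genes the range over the 3 arrays was 0.22 for HOP3, 0.35 for MBF1C, 0.48 for ROF2 and 0.62 for Fes1A, all small against their changes. Array 1 had a higher sum of flower genes: the summed intensity of 5 floral regulators was 753, 335 and 343 on hexenal arrays 1, 2 and 3 and 364 on the acetonitrile array. The largest part of this came from AP1, at 308, 76.7 and 85.5 on the hexenal arrays and 83.6 on the acetonitrile array. The other floral genes were at 95.1 to 149 on array 1, below its lower quartile of 178, and PI (96.0) was close to its acetonitrile value (94.1). The 5 leaf genes summed to between 220498 and 232485 on the hexenal arrays and to 234269 on the acetonitrile array. The 5 root genes summed to between 4321 and 6289 on the hexenal arrays and to 5591 on the acetonitrile array, most of it from SCR. PIN2 was near the lowest intensities of the table (58.4 to 71.8), and EXPA7, COBL9 and PRP3 lay between 86.0 and 261. The root sum thus rests mainly on SCR. Without hexenal array 1 the same 4 genes were called, with log2 fold changes of 4.84 (ROF2), 4.60 (Fes1A), 3.93 (HOP3) and 3.02 (MBF1C).

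The chaperones that these proteins serve were examined next, in lists of loci chosen by function with earlier results known. Of 10 cytosolic HSP70 and HSP90 genes, 4 were called higher (against 0.866% of all loci) and none lower (against 0.0329%), and all 10 had the 3 hexenal arrays above the control (against 26.1% of all loci). HSP90.1 (AT5G52640), the heat-inducible HSP90 that ROF1 binds, rose by 3.99 ± 0.23 (SE, adjusted p = 0.00758 by limma). Its hexenal values were the tightest of the list (SD 0.015, n = 3). Hsp70b (AT1G16030) rose by 3.49 ± 0.34, HSP70 (AT3G12580) by 2.43 ± 0.28 and Hsp70-2 (AT5G02490) by 2.12 ± 0.24 (adjusted p = 0.0231, 0.0341 and 0.0309 in that order). HSP90.2 (AT5G56030, named HSP81-2 in the reference) was at 0.96 ± 0.23 and ERD2 (AT1G56410), which the reference also names HSP70T-1, at 1.34 ± 0.65, neither of them called. The list's median was 1.15, against 1.20 over the 9 co-factor genes and -0.03 over all loci.

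No other co-chaperone or immunophilin gene of the lists passed the same test. Of 12 further co-chaperone genes limma called none (against 0.866% of all loci called higher and 0.0329% lower). An unadjusted p under 0.05 was found for 3 (against 8.75% of all loci), and 2 were called with trend and robust. Those 2 were AT3G12050 (1.53 ± 0.24 SE, adjusted p = 0.0810 in the fit reported here) and SGT1A (AT4G23570), an HSP90 partner in immune receptor folding, at 1.11 ± 0.23 (adjusted p = 0.173). AT3G12050 was also called when the dimmest 50% of loci were left out. The third gene with an unadjusted p under 0.05 was FES1C. The 12 genes had a median of 0.40, and 8 of them had all hexenal arrays above the control (against 26.1% of all loci) and 1 all below (against 32.4%).

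Of 8 other immunophilin genes, which include the small FKBP genes and the cyclophilin SQN, none was called by limma, with or without trend and robust. Of all loci, 0.866% were called higher and 0.0329% lower in the fit reported here. An unadjusted p under 0.05 was found for 1 of the 8, against 8.75% of all loci. That gene, TWD1 (AT3G21640), an FKBP that acts in auxin transport and was singled out after its value was seen, was at 0.70 ± 0.26 (SE, adjusted p = 0.540). The other 7 lay between -0.27 and -0.0028, with a list median of -0.05. The log2 fold changes of ROF2 (4.80) and ROF1 (1.20) were thus above those of every other immunophilin of the list. Whether they differ from the list was not tested.

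Transcription factors tied to these proteins formed the last list. Of 8 genes 3 were called higher and none lower, where 0.866% of all loci were called higher and 0.0329% lower. HSFA2 (AT2G26150), a heat-inducible heat shock factor, rose by 6.38 ± 0.26, DREB2A (AT5G05410), a heat and drought regulator known as a target of MBF1C, by 6.27 ± 0.31, and HSFB2B (AT4G11660), a repressor-type heat shock factor, by 2.15 ± 0.24 (SE, adjusted p = 0.00608, 0.00723 and 0.0325 by limma). HSFB2A (AT5G62020) was at 1.74 ± 0.26 (adjusted p = 0.0685) and was not called here. It was called when the dimmest 25% or 50% of loci were left out and with trend and robust. Dimness was taken from the mean over all 4 arrays. On the acetonitrile array alone HSFB2A was at percentile 38.1, so it passed the 50% cut through its hexenal arrays. The 4 HSFA1 genes, which encode the master activators of the heat response, were not called and lay between 0.21 and 1.02, the highest being HSFA1E (AT3G02990) at 1.02 ± 0.24 (adjusted p = 0.240). Over the 38 genes of the 4 lists, 7 were called higher and none lower, to be read against the same shares of all loci. The count was 4 when a change was tested against a log2 fold change of 0.5 and 0 without hexenal replicate 2.

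**Figure D3:**
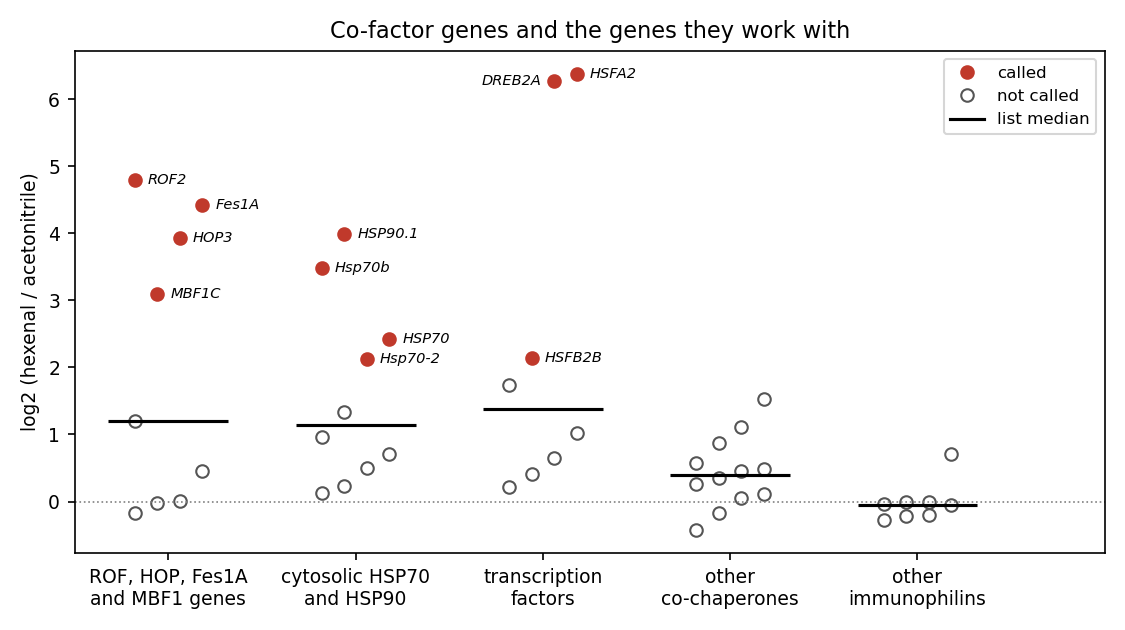
Log2 ratio of hexenal to acetonitrile (vertical axis, mean of 3 hexenal arrays against 1 acetonitrile array) for the 9 co-factor genes and for 4 lists of genes they work with or are related to. Each circle is a gene, filled and named where it was called, and the bar is the list median: 1.20, 1.15, 1.38, 0.40 and -0.05 from left to right.

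For each called gene, the 3 loci with the most similar changes were found by the Euclidean distance between their 3 log2 ratios to the acetonitrile array. The closest to HOP3 was HSP90.1, at a distance of 0.18, followed by AT4G37290 and ZAT6, a stress-induced zinc finger gene (0.20 and 0.23). HOP3 was at 3.91, 3.82 and 4.04 on arrays 1, 2 and 3, and HSP90.1 at 3.99, 3.98 and 4.01. The closest to ROF2 were AT5G51440, AT5G37670 and AT2G20560, at distances of 0.20, 0.22 and 0.31. The closest to Fes1A were AT1G21550, ATERDJ3A (AT3G08970) and AT1G52560, at 0.18, 0.19 and 0.25. ATERDJ3A encodes a DnaJ-type co-chaperone of the endoplasmic reticulum and was at 4.00, 4.34 and 4.75, so that it shared the low array 1 of Fes1A. The closest to MBF1C were CYP89A5, a cytochrome P450 gene, the ethylene response factor gene ERF105 (AT5G51190) and AT5G52750, at 0.11, 0.13 and 0.17, all highest on array 1 and lowest on array 3 as MBF1C was. All 12 of these loci were called higher. They were picked for their closeness to called genes on these same values, so their calls and shared array orders follow largely from that choice. With 3 values per locus from the same arrays the likeness is a description.

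**Figure D4:**
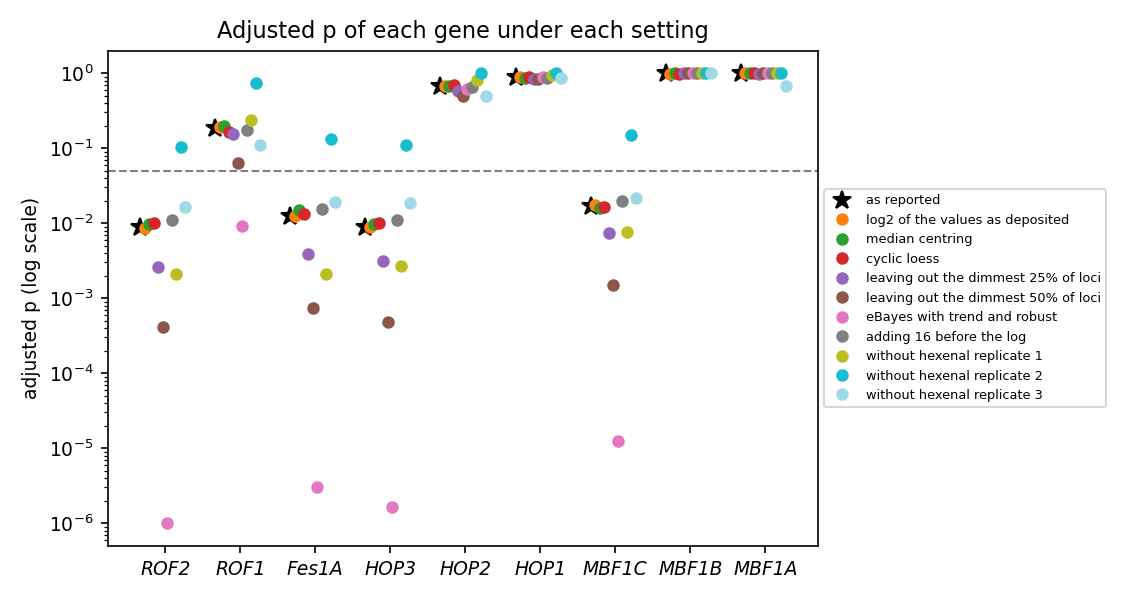
Adjusted p (vertical axis, log scale) of each of the 9 genes in limma as reported (black star) and under 10 other settings (coloured circles), with a dashed line at 0.05. ROF2, Fes1A, HOP3 and MBF1C lie under the line in all settings but the one without hexenal replicate 2 (0.104 to 0.148), ROF1 in 1 setting, and the other 4 genes in none.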

How the data were processed

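For each array the deposited table holds a linear intensity for every locus. How the authors corrected background, normalized and combined probes is not given in the sources used here. Intensities were converted to log2 and quantile normalized, as the lower quartiles of the 4 arrays ran from 178 to 205. Hexenal was compared with acetonitrile over all 30361 loci with limma 3.58.1 under R 4.3.3 (linear model and empirical Bayes, 2 residual degrees of freedom, all from the hexenal arrays) and Benjamini-Hochberg adjustment. Calls needed an adjusted p below 0.05 together with a difference of 2-fold or more. Paralogues were compared by the difference of their log2 ratios.

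Names come from RefSeq's genes of TAIR10.1, which matched 29976 loci. Of 62 listed loci, 57 had their name there, 3 of them as a variant spelling or a family name, and the other 5 are given by code where named. The members and lists were chosen with earlier results of these data known. The genes named are the 9 members, all called partner genes, up to 6 further partner genes by size of change and the 3 loci most like each called member. Named outside this rule are FES1B, FES1C, TWD1, SQN, the tissue markers AP1, PI, SCR, PIN2, EXPA7, COBL9 and PRP3, and the flanking genes in the closing section. Arrays have no read counts, and their number limits precision. Alternatives covered scaling, dim loci, the variance prior, a value added before the log, thresholds and each hexenal replicate left out. Promoter motifs were not searched, and no sequence was used here.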

Additional observations from a re-analysis of the deposited data

How the results depend on the processing

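Leaving out dim loci and fitting the prior with trend and robust leave each fitted change as it was. Only the other alternatives could turn a direction. Under those the 4 called genes kept theirs, with log2 fold changes of 4.65 to 4.89 (ROF2), 4.29 to 4.60 (Fes1A), 3.87 to 3.98 (HOP3) and 3.02 to 3.20 (MBF1C). Their call was lost without hexenal replicate 2 alone (adjusted p = 0.104, 0.131, 0.112 and 0.148 in that order by limma), where 1546 loci had an unadjusted p under 0.05. The residual spread came from 2 arrays there, as it did without replicate 1 or 3, where the 4 genes stayed called. Leaving out 1 hexenal replicate gave 0 to 4 called members, 0 to 7 called partner genes and 0 to 388 called loci, against 4, 7 and 273 with all arrays. The number of called loci was 480 without the dimmest 50% of loci, 628 with trend and robust and 174 when tested against a log2 fold change of 0.5, where 4 partner genes were called. Dim loci were set by the mean over all 4 arrays. ROF2, at percentile 45.1 on the acetonitrile array, thus passed the 50% cut through its hexenal arrays. ROF1 was called with trend and robust only. The sign of MBF1A turned with the values as deposited (0.011), cyclic loess (0.016) and without hexenal replicate 3 (0.23), and its values ran from -0.19 to 0.23 with 1 replicate left out. The sign of MBF1B turned with median centring (-0.0082) and without hexenal replicate 2 (-0.010), and its values ran from -0.010 to 0.013 with 1 replicate left out. The differences between paralogues kept their sign except MBF1B minus MBF1A, which ran from -0.23 to 0.20 with 1 replicate left out. The cause of these changes was not tested. No paired analysis was possible because the acetonitrile group has 1 array, which shares 1 replicate number at most with the hexenal arrays. Low intensities may hold background, and no detection limit could be set.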

Other observations

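The genes that flank the 9 members on the chromosomes, in the order of the TAIR10.1 gene table, were looked at after the data were seen. Of 18 flanking protein-coding genes 17 were measured, and limma called none of them, with or without trend and robust. In the fit reported here 0.866% of all loci were called higher and 0.0329% lower. With trend and robust, 573 of the 30361 loci were called higher and 55 lower. For 17 genes, no call is near those shares. An unadjusted p under 0.05, seen in 8.75% of all loci, was more frequent among the 17, in 4 genes, and the difference was not tested. These were AT1G62730 beside HOP2 (log2 fold change 0.93 ± 0.24 SE, unadjusted p = 0.0095, adjusted p = 0.284), AT3G09360 beside Fes1A (0.72 ± 0.25, unadjusted p = 0.033, adjusted p = 0.494) and the 2 described next, MSH7 and AT4G12410. Beside MBF1C, the mismatch repair gene MSH7 was at 1.22 ± 0.34 (SE, adjusted p = 0.337), with 0.97, 1.63 and 1.06 on hexenal arrays 1, 2 and 3. Beside HOP3, AT4G12410 was at 1.17 ± 0.31 (adjusted p = 0.303). Beside ROF2, AT5G48560 and AT5G48575 were at 0.015 ± 0.39 and 0.041 ± 0.24. The median over the 17 flanking genes was 0.06.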
